A study of Rattus norvegicus with 6 samples.

Results

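Aldehyde dehydrogenases use NAD or NADP to oxidise aldehydes to acids. In the kidney they are known mainly from tubule cells, where they take part in retinoic acid synthesis, folate metabolism, the breakdown of lysine and tryptophan, carnitine synthesis and the removal of lipid-derived aldehydes. Of the 15645 genes that the array's probes name, 9 genes of this family are described here: Aldh1a1, Aldh1b1, Aldh1l1, Aldh2, Aldh3a1, Aldh3a2, Aldh7a1, Aldh8a1 and Aldh9a1. They were taken by symbol, with every non-control probe whose RefSeq accession belongs to the gene, which gave 17 of 61537 probes.

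The samples were renal cortex of male Sprague-Dawley (Crl:CD(SD)) rats, bought at 5 weeks of age. Treated rats received 4-hydroxy-m-phenylenediammonium dichloride, the dihydrochloride of 2,4-diaminophenol, at 100 mg/kg/day for 4 weeks, and control rats received corn oil for 4 weeks. Neither the vehicle of the compound nor the age at sampling is stated in the labels. There were 3 animals per group, called biological replicates in the design text, with 1 one-colour Agilent array per animal. A level is the log2 spot signal minus the 75th percentile of the array, so that 0 is that percentile, and levels of different probes are not set against each other.

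All treated arrays lay on 1 slide and all control arrays on another, scanned separately, so for every difference below the effect of the slide and that of the compound cannot be told apart. The share of probes well above background was 68.9% to 69.6% on treated arrays and 63.1% to 67.7% on control arrays. All 14 proximal tubule markers checked, such as the phosphate transporter Slc34a1, were well above background on all 6 arrays. Control replicate 3 stood apart in its liver transcripts. The summed signal of 6 hepatocyte markers, relative to the 75th percentile, was 2.40 to 3.18 on treated arrays, and 1.70, 2.53 and 28.1 on control arrays, with the highest in replicate 3. Albumin (Alb) had a level of 3.89 there, against -1.05 and -1.49 in the other controls. Several aldehyde dehydrogenases are also abundant in liver, and results are therefore given below without that array too.

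Aldh1l1 rose 1.65-fold in treated rats and was the only one of the 9 genes to pass the test (limma, Benjamini-Hochberg adjusted p under 0.05 over 12130 genes), while 0 were called lower. Of all genes tested, 3.03% were called higher and 1.33% lower. By the unadjusted p, with the same threshold of 0.05, 1 member was higher (11.8% of all genes) and 1 was lower (13.2% of all genes). That lower gene was Aldh8a1. All 9 genes were well above background on all 6 arrays at the probe used. Values did not overlap between the groups for 3 of the 9 genes, and for 32.8% of all genes. The median log2 fold change of the members was 0.0052, against -0.030 over all genes tested, and the median size of the change regardless of sign was 0.053, against 0.14. In bulk tissue, fewer cells of a type and less RNA per cell cannot be told apart.

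**Figure D1:**
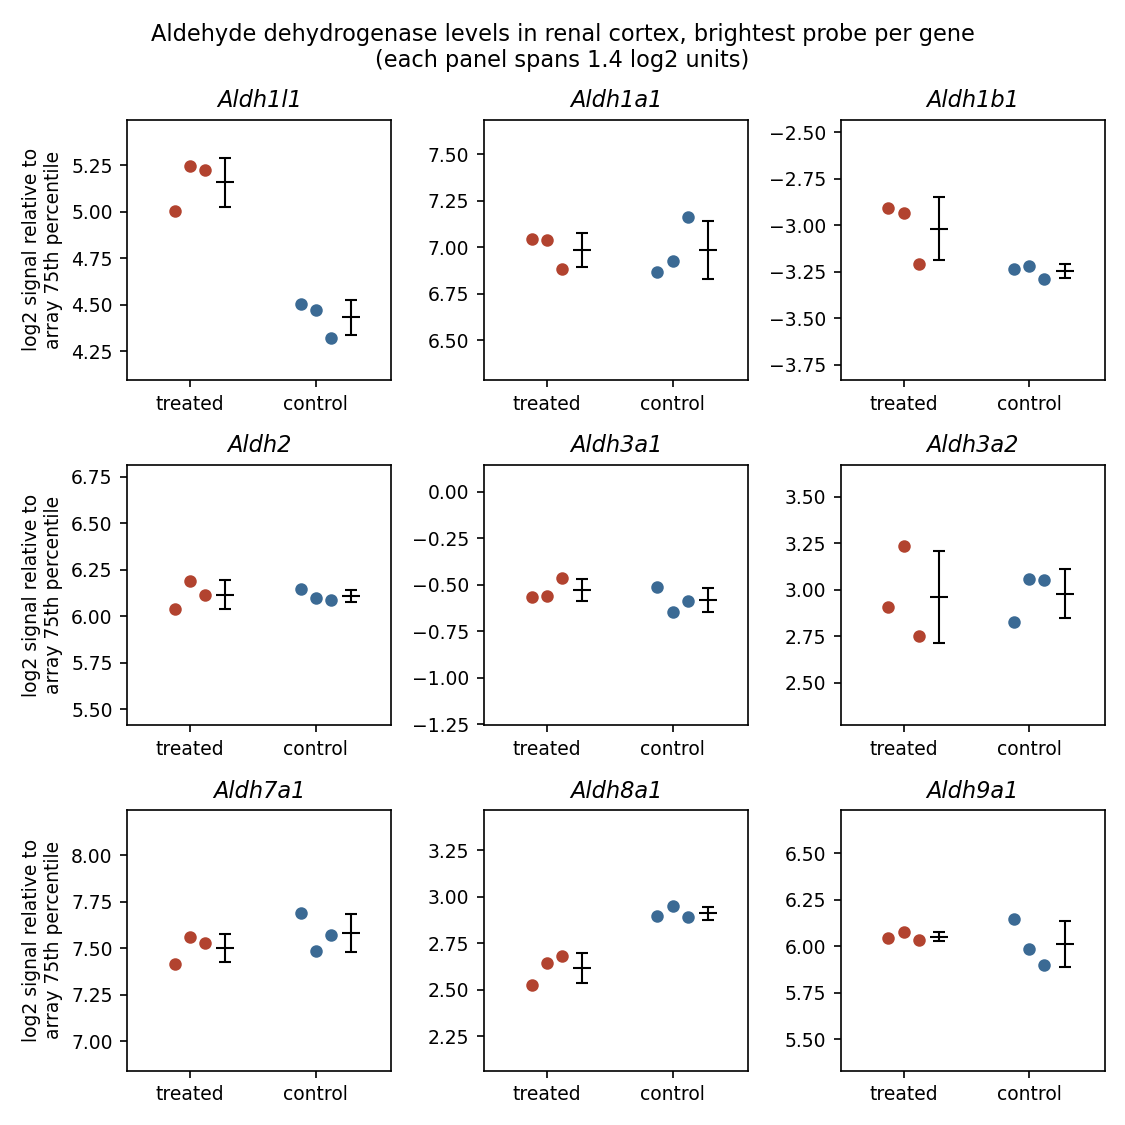
Levels of the 9 aldehyde dehydrogenases at the brightest probe of each gene, in log2 units relative to the array's 75th percentile, for 3 treated (left in each panel) and 3 control rats. Points are animals, and the bars beside them give the mean and SD. Aldh1l1 values lie clear of each other between the groups, Aldh8a1 values lie lower in all treated rats, and 6 genes overlap.

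Aldh1l1 encodes the cytosolic 10-formyltetrahydrofolate dehydrogenase, which turns formyl-folate into tetrahydrofolate and carbon dioxide. Its level was 5.01, 5.24 and 5.22 in treated rats, against 4.50, 4.47 and 4.32 in control rats. Every treated animal lay above every control animal, and the gap between the groups was wider than the spread within either of them. The means were 5.16 ± 0.13 in treated and 4.43 ± 0.096 in control rats (SD, n = 3 each), a log2 fold change of 0.73 (SE 0.091, 95% confidence interval 0.50 to 0.95, limma adjusted p = 0.027). As a ratio the interval ran from 1.41 to 1.93. The array carries 1 probe for Aldh1l1, so the change has no check by a further probe. The call was lost when any of the 6 arrays was left out (limma adjusted p from 0.0509 to 0.0900), with log2 fold changes from 0.67 to 0.80. In those fits at most 48 genes of the whole array were called higher. Without control replicate 3 the log2 fold change was 0.67 (limma adjusted p = 0.0728).

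The DNA before Aldh1l1 is shown with that of Aldh8a1, the member with the lowest fold change, and of Aldh9a1, so that the letters of known response elements can be compared. Aldh9a1 values overlapped between the groups, as did those of Aldh1a1, Aldh3a2 and Aldh7a1, which also have windows. Of the members with a window, Aldh9a1 held the most antioxidant and xenobiotic cores, so its contrast with Aldh1l1 owes something to this choice. The windows run from 250 bases before to 50 bases after the annotated start and come from the RefSeq promoter table of build GRCr8. They cover chr4:124616970-124617269, plus strand, for Aldh1l1, chr1:18003257-18003556, plus strand, for Aldh8a1 and chr13:82038429-82038728, plus strand, for Aldh9a1. Capitals mark, on either strand, the antioxidant response element core TGANNNNGC that NRF2 reads, the xenobiotic response element core GCGTG that the aryl hydrocarbon receptor reads, and the CCAAT box.
Aldh1l1: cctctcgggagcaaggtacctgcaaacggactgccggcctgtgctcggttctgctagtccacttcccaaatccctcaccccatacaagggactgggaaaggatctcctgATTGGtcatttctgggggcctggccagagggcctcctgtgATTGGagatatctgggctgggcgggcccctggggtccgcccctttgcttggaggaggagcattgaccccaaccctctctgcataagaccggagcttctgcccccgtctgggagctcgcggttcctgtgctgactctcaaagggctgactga
Aldh8a1: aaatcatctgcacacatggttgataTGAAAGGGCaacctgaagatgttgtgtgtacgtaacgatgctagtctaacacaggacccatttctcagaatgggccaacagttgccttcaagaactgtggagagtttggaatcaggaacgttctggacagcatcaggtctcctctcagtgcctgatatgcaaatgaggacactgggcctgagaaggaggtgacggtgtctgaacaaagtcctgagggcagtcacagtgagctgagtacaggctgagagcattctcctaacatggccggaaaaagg
Aldh9a1: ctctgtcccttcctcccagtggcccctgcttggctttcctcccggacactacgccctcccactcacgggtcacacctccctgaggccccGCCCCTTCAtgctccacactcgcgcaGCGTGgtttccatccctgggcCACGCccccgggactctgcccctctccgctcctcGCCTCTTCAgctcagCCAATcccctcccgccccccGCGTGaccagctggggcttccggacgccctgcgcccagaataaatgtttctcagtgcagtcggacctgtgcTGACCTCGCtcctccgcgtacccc
The Aldh1l1 window held 2 CCAAT boxes, on the reverse strand with their first bases at positions -141 and -101 from the start, and none of the antioxidant or xenobiotic cores. Aldh8a1 had 1 antioxidant core. Aldh9a1 had 3 antioxidant cores, 3 xenobiotic cores and 1 CCAAT box. Its antioxidant core in the transcribed part overlaps a match to the nuclear receptor motif AGGTCA, here on the reverse strand. Windows were found for 7 of the 9 members, all but Aldh2 and Aldh3a1. The antioxidant core was in 4 of the 7 and in 40.5% of all 33469 windows of the table, and the xenobiotic core was in 3 of the 7 and in 29.7% of all windows. The CCAAT box was in 6 of the 7 and in 37.5% of all windows. The nuclear receptor motif AGGTCA was in 1 of the 7 (16.2% of all windows), and the ATF core TGATGNAA and the TATA box TATAAA were in 0 of the 7 (3.98% and 14.2% of all windows). These are matches of letters on either strand and not shown to be binding sites.

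Among the enzymes of retinal and acetaldehyde oxidation, none of the 3 genes passed. Aldh1a1, which makes retinoic acid from retinal, had levels of 7.04, 7.04 and 6.88 in treated rats, against 6.87, 6.93 and 7.16 in control rats. The groups overlapped, with the highest value in control replicate 3, the array with liver transcripts. Its log2 fold change was 0.00084 (95% confidence interval -0.24 to 0.24, limma adjusted p = 0.997), and 0.089 without control replicate 3. Its other probe read 4.99, 5.10 and 4.92 in treated rats and 4.68, 4.70 and 4.92 in control rats, a log2 fold change of 0.24 (limma adjusted p = 0.184 over all probes). Only control replicate 3 reached the treated range at that probe.

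Aldh2, the mitochondrial enzyme that clears acetaldehyde, had levels of 6.04, 6.19 and 6.12 in treated rats, against 6.15, 6.10 and 6.09 in control rats. These ranges overlapped, and the log2 fold change of 0.0052 had a 95% confidence interval of -0.15 to 0.16, which as a ratio is 0.903 to 1.12 (limma adjusted p = 0.969). At the other Aldh2 probe the log2 fold change was -0.14 (limma adjusted p = 0.276), with all treated values below all control values. Aldh1b1, a mitochondrial relative of Aldh2, had levels of -2.91, -2.94 and -3.21 in treated rats, against -3.24, -3.22 and -3.29 in control rats. The treated values were all higher, but treated replicate 3 lay close to the controls, and the log2 fold change of 0.23 did not pass (SE 0.095, limma adjusted p = 0.210). Its other probe was erratic, from -4.66 to -2.57 in treated rats and from -5.73 to -0.72 in control rats, and was not well above background on 1 control array. That probe gave a log2 fold change of -0.25 with an SE of 1.30.

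The enzymes of fatty and aromatic aldehydes also did not pass. Aldh3a1, an enzyme of aromatic and lipid-peroxide aldehydes that aryl hydrocarbon receptor ligands induce in rat liver, had levels of -0.57, -0.56 and -0.46 in treated rats, against -0.51, -0.65 and -0.59 in control rats. The groups overlapped, with a log2 fold change of 0.053 (95% confidence interval -0.10 to 0.21, limma adjusted p = 0.641). As a ratio the interval ran from 0.930 to 1.16. Its other probe, not well above background on 1 control array, had a log2 fold change of 0.35 (limma adjusted p = 0.324). Aldh3a2, the fatty aldehyde dehydrogenase of the endoplasmic reticulum, had levels of 2.91, 3.23 and 2.75 in treated rats, against 2.83, 3.06 and 3.05 in control rats. Its treated values spread to both sides of the controls, and the log2 fold change was -0.016 (95% confidence interval -0.37 to 0.34, limma adjusted p = 0.960). The other Aldh3a2 probe gave -0.0088. The Aldh3a1 and Aldh3a2 genes neighbour each other on chromosome 10, with 0 coding genes between them in RefSeq's GRCr8 annotation.

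Of the 3 genes of amino acid and carnitine metabolism, Aldh8a1 came nearest to the threshold. Aldh8a1, which oxidises aminomuconic semialdehyde in the kynurenine pathway of tryptophan breakdown, had levels of 2.53, 2.64 and 2.68 in treated rats, against 2.89, 2.95 and 2.89 in control rats. All treated values lay below all control values. The log2 fold change was -0.29 (SE 0.064, 95% confidence interval -0.45 to -0.14), with limma adjusted p = 0.0613, and the array has 1 probe for the gene. The call depended on processing: limma gave an adjusted p of 0.0203 with a normexp background and 0.0380 with an intensity trend in the variance, while scaling on spike-ins gave -0.11 (adjusted p = 0.343). Without control replicate 3 the log2 fold change was -0.31 (limma adjusted p = 0.142).

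Aldh7a1, the antiquitin enzyme of lysine breakdown, had levels of 7.42, 7.56 and 7.53 in treated rats, against 7.69, 7.48 and 7.57 in control rats. These overlapped, with a log2 fold change of -0.078 (95% confidence interval -0.27 to 0.11, limma adjusted p = 0.571), which was 0.11 with spike-in scaling. Its 2 other probes gave -0.17 and -0.24 (limma adjusted p = 0.331 and 0.138 over all probes), each with treated values all below control values. Aldh9a1, which oxidises the trimethylaminobutyraldehyde step of carnitine synthesis, had levels of 6.04, 6.08 and 6.03 in treated rats, against 6.14, 5.99 and 5.90 in control rats. The treated values lay inside the control range, with a log2 fold change of 0.040 (95% confidence interval -0.15 to 0.23, limma adjusted p = 0.783). The other Aldh9a1 probe gave -0.19 (limma adjusted p = 0.165), with treated values of 3.42 to 3.48 and control values of 3.52 to 3.71.

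Without control replicate 3, limma over genes called 0 members, as it called 0 of all genes, with 2473 genes at an unadjusted p under 0.05, while limma over probes called 1 member probe higher. The log2 fold changes were then 0.21 for Aldh1b1, -0.0064 for Aldh2, 0.051 for Aldh3a1, 0.020 for Aldh3a2, -0.084 for Aldh7a1 and -0.015 for Aldh9a1.

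**Figure D2:**
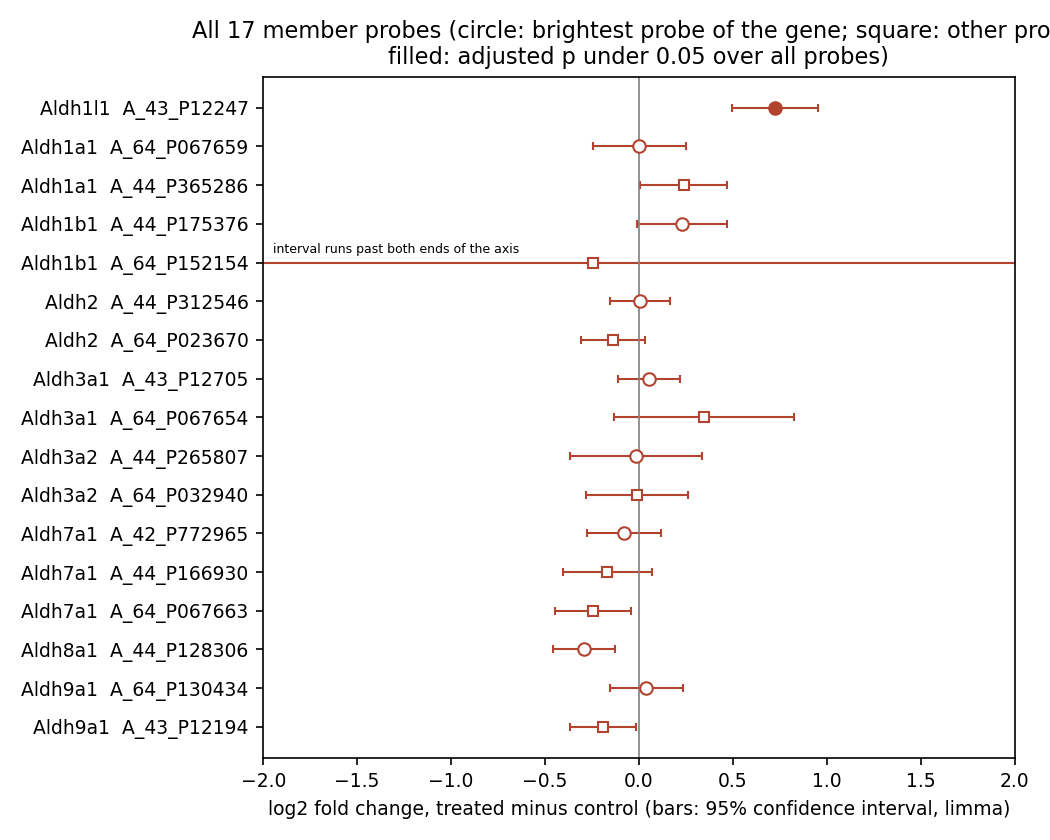
Log2 fold change, treated minus control, of all 17 member probes with 95% confidence intervals from limma over 40988 probes. Circles are the brightest probe of a gene, squares the other probes, and filled symbols passed an adjusted p under 0.05. The Aldh1l1 probe stands apart at 0.73, and 16 probes have open symbols.

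Across all 17 probes, each of which passed the filter on dim probes, 1 was called higher (the Aldh1l1 probe, limma adjusted p = 0.0135 over 40988 probes) and 0 lower, where 4.97% of all probes tested were called higher and 1.74% lower. The count called higher was 0 without treated replicate 2 and without treated replicate 3, and 1 without any other array. Log2 fold changes were above 0 for 8 probes and below 0 for 9, with a median of -0.0088. Values did not overlap between the groups for 7 of the 17, against 33.3% of all probes tested. Probes of 1 gene did not always move together. The difference between the other Aldh9a1 probe and its brightest probe was -2.62, -2.60 and -2.62 in treated rats, against -2.44, -2.32 and -2.38 in control rats. The same difference for Aldh1a1 was -2.05, -1.93 and -1.96 in treated rats, against -2.19, -2.22 and -2.24 in control rats. These do not overlap between the groups, so that the fold change of Aldh9a1 or Aldh1a1 depends on the probe by about 0.23 to 0.24 log2 units. That is small beside that of Aldh1l1 but larger than the fold change at the brightest probe of Aldh9a1 or Aldh1a1. The difference also did not overlap for the other Aldh2 probe, with a mean of -0.19 in treated and -0.041 in control rats, and for 1 of the 2 other Aldh7a1 probes, with a mean of -0.26 in treated and -0.10 in control rats.

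Of 8 other aldehyde dehydrogenase genes tested, of 12 listed, 1 was called higher and 0 lower. The called gene was Aldh1l2, the mitochondrial counterpart of Aldh1l1. Its levels were -2.85, -2.71 and -2.86 in treated rats, against -3.63, -3.56 and -3.43 in control rats, without overlap. The log2 fold change was 0.73 (SE 0.079, limma adjusted p = 0.021). At its other probe the log2 fold change was -1.11 (SE 0.53, limma adjusted p = 0.259), with treated values from -6.25 to -4.14 and control values from -4.24 to -3.68, so that the 2 probes differ in sign. Next by p was Aldh3b1, a lipid aldehyde enzyme, at 0.77 (SE 0.25, limma adjusted p = 0.132). The median log2 fold change of these 8 genes was 0.22.

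The list of other folate one-carbon genes held 20 genes tested, with 1 called higher, 1 called lower, and a median log2 fold change of -0.080. Mthfd2, a mitochondrial methylene-tetrahydrofolate dehydrogenase, had levels of -1.59, -1.36 and -1.62 in treated rats, against -2.02, -2.03 and -2.16 in control rats. These did not overlap, and the log2 fold change was 0.55 (SE 0.093, limma adjusted p = 0.039), with values from 0.24 to 0.88 at its other 4 probes. Mthfd1, the cytosolic enzyme that makes the formyl-folate used by Aldh1l1, did not pass, at -0.0035.

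The other pathways that the members belong to held few calls in the fit over genes, which takes the brightest probe of each gene. Of 21 retinoid genes tested, 0 were called higher and 1 lower, Rdh11, a retinol dehydrogenase, at -0.37 (SE 0.058, limma adjusted p = 0.035), with a median of -0.076. Over all probes limma also called the brighter Rarb probe lower (-0.46, adjusted p = 0.048). It called the dimmer Rarg probe higher (0.51, adjusted p = 0.047). The other probe gave 0.14 for Rarb and 0.19 for Rarg, neither called. None of 8 kynurenine pathway genes was called with limma, and by an unadjusted p under 0.05 there was 1 higher and 2 lower. The smallest p among them was that of Kyat1, a kynurenine aminotransferase, at -0.28 (limma adjusted p = 0.132), and the median was -0.21. Of 10 lysine catabolism genes limma over genes called 0. By the unadjusted p 1 was higher and 1 lower, with a median of -0.053. The smallest p was at Phykpl, a phospholyase (0.31, limma adjusted p = 0.061). Another Phykpl probe gave 0.52 and was called higher over all probes (limma adjusted p = 0.036). Of 7 carnitine genes limma called 0, while 0 were higher and 4 lower by the unadjusted p and a median of -0.30. Crat, carnitine acetyltransferase, had the smallest p, at -0.31 (adjusted p = 0.083).

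Of 9 choline and betaine genes limma called 0, while 0 were higher and 2 lower by the unadjusted p, and a median of -0.0036. Sardh, sarcosine dehydrogenase, had the smallest p, at -0.29 (adjusted p = 0.0595). Of 17 genes of ethanol, acetate and lipid aldehyde metabolism limma over genes called 0. By the unadjusted p 1 was higher and 3 lower, with a median of -0.093. Agps, an ether lipid enzyme, had the smallest p (0.32, limma adjusted p = 0.0595). Other Agps probes gave -0.38, called lower over all probes (limma adjusted p = 0.047), and -0.21. Cyp4a8 was at -0.093 at its brightest probe. Other Cyp4a8 probes gave 0.94 and 0.44, called higher over all probes (limma adjusted p = 0.012 and 0.038). Of 9 polyamine and monoamine oxidation genes limma called 0, while 1 was higher and 1 lower by the unadjusted p and a median of -0.16. The smallest p there was that of Smox, spermine oxidase, at 0.48 (adjusted p = 0.053). Over all probes this Smox probe was called higher (limma adjusted p = 0.045), and other Smox probes gave 0.17 and -0.14.

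Fold changes larger than that of Aldh1l1 were called among NRF2 genes and for an aldehyde reductase. Of 21 genes of alcohol, aldehyde and ketone metabolism outside the family, 2 were called higher and 0 lower, with a median of -0.060. They were Gstp1, a glutathione S-transferase gene that reduces no carbonyl and is also counted among the NRF2 genes (log2 fold change 2.29, limma adjusted p = 0.015), and the aldehyde reductase gene Akr7a3, with a mean level of 7.93 in treated and 6.80 in control rats (log2 fold change 1.13, limma adjusted p = 0.031). By the unadjusted p, 5 of the 21 were higher and 2 lower. The largest change of the list, at Akr1b8, was not called (3.07, SE 0.67, limma adjusted p = 0.063), with values that did not overlap. Of 11 NRF2 and aryl hydrocarbon receptor genes tested, 4 were called higher, Gstp1 among them, and 0 lower, with a median of 0.78. The largest was Gstm1, a glutathione S-transferase gene, at 3.84 (SE 0.31, limma adjusted p = 0.014). Over all probes, limma called Nqo1 (2.72 at its brighter probe, adjusted p = 0.019) and Gclm (2.93, adjusted p = 0.026) higher. Gclm levels were low, from -7.72 to -5.85 in control rats. Ahr (0.41, limma adjusted p = 0.229 over all probes) and Ahrr (0.25, limma adjusted p = 0.714) were not called. Cyp1a1, Cyp1b1 and Tiparp of this list were not tested, so the count does not cover them. Among the members other than Aldh1l1, the highest upper 95% confidence limit of a log2 fold change at the brightest probe was 0.46, that of Aldh1b1. This limit does not hold for the other probes. Upper limits there were 0.47 for Aldh1a1, 0.83 for Aldh3a1 and 2.97 for the erratic Aldh1b1 probe.

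**Figure D3:**
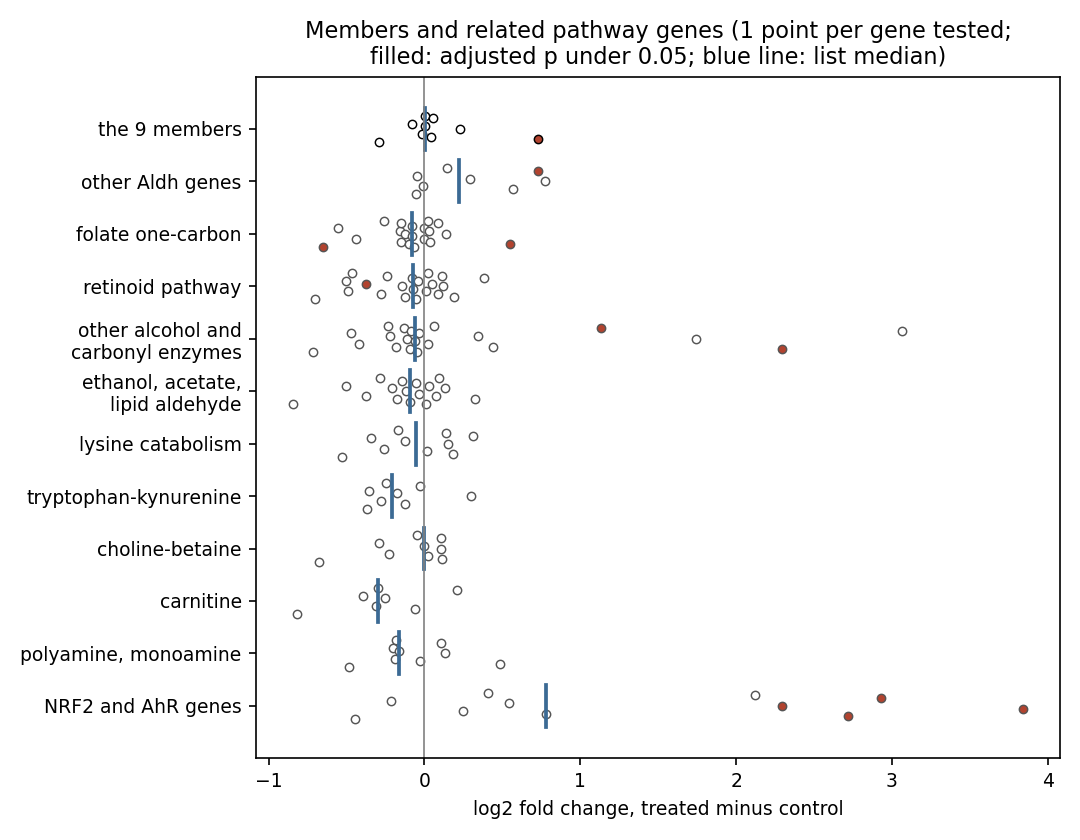
Log2 fold change, treated minus control, of the 9 members and of the related pathway genes, with 1 point per gene tested. Filled points passed an adjusted p under 0.05, and blue lines are list medians. Aldh1l1 lies at 0.73, Aldh8a1 at -0.29 and Aldh1b1 at 0.23, and the other members lie between -0.078 and 0.053. The joint list of NRF2 and aryl hydrocarbon receptor genes reaches 3.84, at the glutathione S-transferase gene Gstm1.

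The genes whose profile over the 6 arrays was nearest to that of Aldh1l1, each gene centred on its own mean, were Arid5a, Dap and C8h11orf52. Their root mean square differences from Aldh1l1 were 0.058, 0.065 and 0.068 log2 units, out of 12121 genes searched. Arid5a, an RNA-binding protein gene, had levels of -2.02, -1.80 and -1.94 in treated rats, against -2.56, -2.55 and -2.65 in control rats. Like Aldh1l1 it was lowest in replicate 1 among the treated and in replicate 3 among the controls.

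Markers of other cells moved between the groups beside these results. The summed signal of 10 red blood cell genes, relative to the 75th percentile, was 887, 1400 and 1498 in treated rats, against 762, 583 and 609 in control rats, with 2 of the 10 genes called higher. Gata1, an erythroid transcription factor gene, was called higher over all probes (log2 fold change 1.74, limma adjusted p = 0.028). Its levels were -5.90, -5.21 and -4.97 in treated rats, against -7.14, -6.73 and -7.42 in control rats. It was not well above background on any of the 3 control arrays, so the size of its change is uncertain. The haemoglobin gene Hba-a1 was at a mean level of 9.20 in treated and 8.32 in control rats. The summed signal of 14 proximal tubule markers was 1650, 1632 and 1671 in treated rats, against 1834, 1769 and 1804 in control rats, with 2 called lower, among them Anpep, the brush border aminopeptidase (log2 fold change -0.65, limma adjusted p = 0.030). Sums for the other 9 marker lists, those of other tubule segments, podocytes, endothelium, leukocytes, hepatocytes and inner medulla, overlapped between the groups. The leukocyte sum rests largely on Lyz2, the lysozyme gene, at a mean level of 5.95 in treated and 6.15 in control rats. Of the 12 leukocyte genes limma called 0, while 3 were higher and 2 lower by the unadjusted p, each without overlap. The higher ones were Cd52, a lymphocyte and monocyte surface antigen gene (log2 fold change 2.41, adjusted p = 0.0729), and the neutrophil genes S100a8 (1.51, adjusted p = 0.10) and S100a9 (1.35, adjusted p = 0.0947). The lower ones were the integrin gene Itgam (-0.66, adjusted p = 0.101) and Coro1a, a leukocyte actin-binding protein gene (-0.32, adjusted p = 0.148). The part of these shifts in the Aldh1l1 and Aldh8a1 values was not tested.

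**Figure D4:**
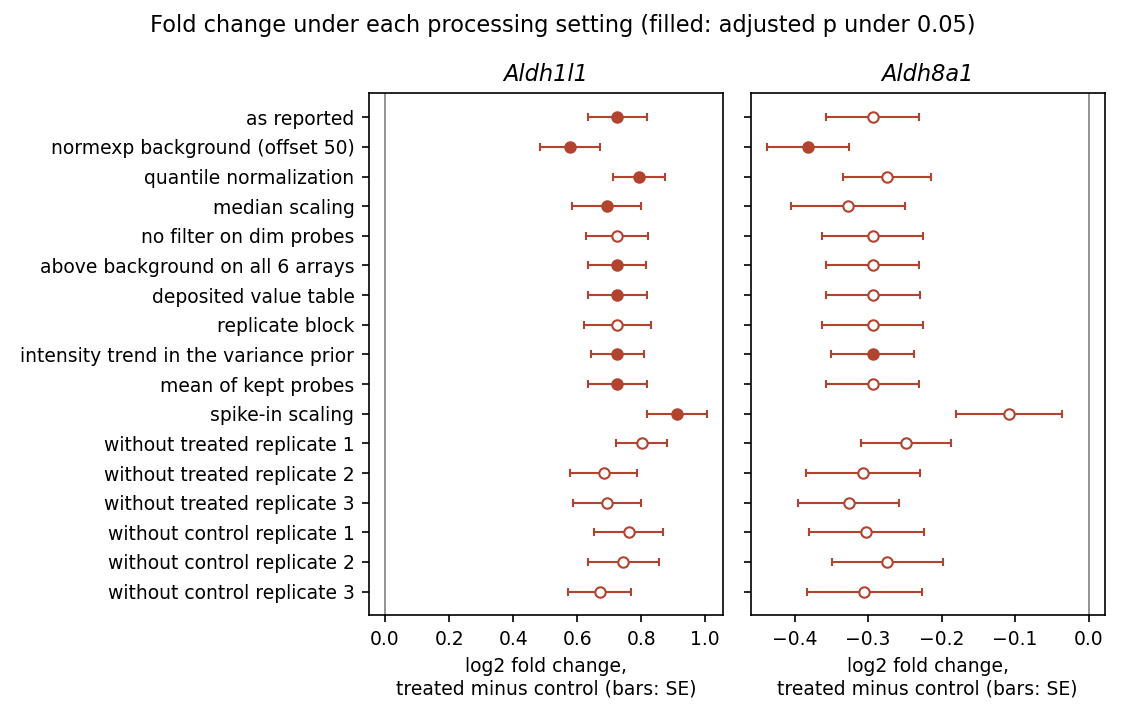
Log2 fold change, treated minus control, of Aldh1l1 (left) and Aldh8a1 (right) with its SE as reported and under each other processing setting, filled where the adjusted p was under 0.05. Aldh1l1 stays between 0.58 and 0.91 and is open with no filter on dim probes, with the replicate block and whenever an array is left out, and Aldh8a1 stays between -0.38 and -0.11 and is filled under 2 settings.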

How the data were processed

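Total RNA of 6 rats was hybridised to 1-colour arrays, 1 per animal. Per the file headers, Agilent Feature Extraction 10.7.1.1 read the arrays, and the deposited intensity is a background-subtracted, detrended Cy3 signal that is not scaled between arrays. The values deposited in the series table are a linear ratio, which equalled each array's signal over its 75th percentile (median ratio of 0.998 at signals of that percentile or more), and was used as an alternative. The build named in the headers, rn4, differs from GRCr8, so no gene coordinates are given apart from those of the promoter table.

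Groups came from the labels. Log2 of the signal minus the 75th percentile over 61537 non-control probes was used, with 1 to 3 outlier spots per array left out. No spot was saturated, and arrays were not duplicates. Accessions without versions named 28206 probes, and 33331 were unnamed and entered only the probe fit. A probe was kept if at least 1 group had it well above background on all its arrays, the brightest stood for its gene, and 12130 genes and 40988 probes were compared with limma 3.58.1 (R 4.3.3, lmFit and eBayes, Benjamini-Hochberg, threshold 0.05). The number of arrays limits the precision. Genes are named by a rule: all members, of the other Aldh genes those called and those with the smallest p, of each pathway list the called genes or the 1 with the smallest p, and the 3 profiles nearest to the called member. Mthfd1, Alb, Slc34a1, Anpep, Gata1, Hba-a1, Lyz2, Cd52, S100a8, S100a9, Itgam and Coro1a are named outside it, with values seen. So are Akr1b8, Ahr, Ahrr, Rarb, Rarg and Cyp4a8, while Cyp1a1, Cyp1b1 and Tiparp are named as not tested. The members, lists and alternatives were chosen with earlier results of these data known. The values of 1 gene of the folate list are not reported here.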

Additional observations from a re-analysis of the deposited data

How the results depend on the processing

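The count of members called higher was 0 with no filter on dim probes, with the replicate block, with a fold of at least 2 also required, and without any 1 array (0 to 0), while Aldh1l1 kept its direction under all 16 alternatives, from 0.58 to 0.91 (limma adjusted p = 0.0572 with no filter and 0.118 with the replicate block). The count called lower was 1, Aldh8a1, with a normexp background and with an intensity trend, and 0 without any 1 array. Member probes called higher were 0 with the replicate block and with the fold rule and 0 to 1 without 1 array, and member probes called lower were 1 with normexp and with the trend and 0 without any 1 array. The sign changed for members near 0, none of them called: Aldh1a1 was -0.033 with median scaling and -0.058 to 0.089 without 1 array. Aldh1b1 was -0.45 with normexp, where its erratic probe was the brighter one, and -0.0091 as the mean of its probes. Aldh2 was -0.043, -0.028 and -0.067 with normexp, median scaling and the mean of probes, and -0.033 to 0.044 without 1 array. Aldh3a2 was 0.031, 0.0080 and 0.17 with normexp, quantile and spike-in scaling and -0.15 to 0.090 without 1 array. Aldh7a1 was 0.11 with spike-in scaling, and Aldh9a1 was -0.076 as the mean of probes and -0.015 to 0.11 without 1 array. The causes were not tested.

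Spike-in scaling was added after the data were seen, because 7 spike-in probes had a median log2 difference of -0.13. It moved the median of all genes by 0.19, to 0.16, beside which Aldh1l1 was at 0.91 and Aldh8a1 at -0.11. It called 1345 genes higher and 34 lower, and 6005 and 133 probes, against 368 and 161 genes and 2039 and 715 probes as reported. With normexp 496 genes and 1718 probes were called lower (449 genes higher), and with the trend 395 genes and 1643 probes (441 genes higher). No filter called 37 genes higher and 7 lower (942 and 120 probes), the mean of probes 229 and 63 genes, and the fold rule 47 and 9 genes (491 and 34 probes). Of the calls, 69.6% were higher as reported, against 47.5% with normexp, 52.8% with the trend, 84.1% with no filter and 97.5% with spike-in scaling. Without 1 array, 0 to 48 genes were called higher and 0 to 6 lower, and 750 to 1326 and 90 to 152 probes. The replicate block called 0 genes higher and 0 lower, with 2546 at an unadjusted p under 0.05, and 412 and 24 probes. In the labels, same-numbered animals share only a number. Their deviations from the group means correlated at -0.12, -0.11 and 0.089. Replicate 3 correlated best with its own number, and replicates 1 and 2 did not. With 3 animals per group these values cannot show whether animals were paired. A block for slide or scan was not run, since each slide held 1 group. The 2 probes not well above background on 1 control array limit what can be said of Aldh1b1 and Aldh3a1.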
